A study of Homo sapiens with 29 samples.

Results

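The actin genes encode the subunit of the actin filament, and 6 of them make up the family in human cells: ACTA1, the actin of skeletal muscle; ACTC1, that of heart muscle; ACTA2 and ACTG2, those of vascular and of visceral smooth muscle; and ACTB and ACTG1, the beta and gamma actins of the cytoplasm in nearly every cell type. These 6 genes, of 22439 genes that RefSeq accessions named on the array, were followed across all samples. They were chosen by name, and with the knowledge that ACTG2 was among the genes that differed most at 48 h in growth media, so values at that time in growth media are given as a description with no test. ACTB was measured by 2 probes and each other actin by 1, which makes 7 probes, and all 7 passed the filter on low signals (well above background on at least 2 arrays). The cells were LHCN-M2, an immortalized human myoblast line that carries TERT and CDK4 and is 1 clone. All of them were transfected, either with 20 nM ZNF148 siRNA or with 20 nM nontargeting siRNA, so there were no untransfected cells. ZNF148 is a zinc finger transcription factor, and the question of the study was how its loss changes the differentiation of myoblasts. In growth media, RNA was taken at 24 h from subconfluent cells and at 48 and 96 h from confluent cells, and in differentiation media at 48 and 96 h from confluent cells. The 5 conditions with either siRNA gave 10 groups and 29 one-colour Agilent arrays, with 3 arrays a group, or 2 where nontargeting siRNA met 96 h of growth media. The labels call the arrays of a group biological replicates. The labels count the hours after transfection in both media, whereas the study's methods speak of hours in either medium, so whether the same hour in both media is the same time since transfection is not settled. Levels below are log2 intensities of the authors' normalized table, differences are on the same log2 scale, and a group is given as its mean ± SD over its arrays. As probes differ in brightness for reasons other than abundance, the level of 1 actin is not compared with that of another.

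In a myoblast, actin filaments of the cytoplasm are built from the beta and gamma actins and serve shape, adhesion and movement. When myoblasts leave the cell cycle and fuse into myotubes, sarcomeres form, whose thin filaments are polymers of the skeletal and cardiac actins with tropomyosin, troponin and nebulin along them. Developing skeletal muscle uses the cardiac and aortic smooth muscle actins before the skeletal actin becomes the main form. Transcription of many actin genes is driven by serum response factor (SRF) and its cofactors of the myocardin family, which bind a sequence element called the CArG box. Actin monomer itself holds back the cofactors MRTFA and MRTFB, so that the state of the filaments feeds back on the genes.

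The sequences just upstream of 5 of the 6 genes are shown because the CArG box is the feature that links the family. The RefSeq promoter table (GRCh38.p14) held 1 window each for ACTA1, ACTG2 and ACTG1, 2 for ACTA2 and 3 for ACTC1, and ACTB was not analysed here. Printed are the 125 bases before the transcription start, with exact CArG boxes, and boxes with 1 letter of the A/T core replaced, in capitals. For ACTC1 and ACTA2 only the window with such boxes is printed, and the other windows of these genes held neither kind of box.
ACTA1 (chr1:229434095-229434219, minus strand): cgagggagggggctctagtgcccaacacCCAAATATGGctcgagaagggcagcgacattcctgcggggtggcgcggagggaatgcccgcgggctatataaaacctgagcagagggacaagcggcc
ACTC1 (chr15:34795550-34795674, minus strand): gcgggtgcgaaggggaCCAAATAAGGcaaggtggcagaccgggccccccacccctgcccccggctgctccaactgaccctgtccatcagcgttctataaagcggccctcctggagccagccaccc
ACTA2 (chr10:88952774-88952898, minus strand): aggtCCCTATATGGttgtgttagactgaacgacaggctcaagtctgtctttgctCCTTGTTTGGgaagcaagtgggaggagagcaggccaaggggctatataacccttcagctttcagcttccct
ACTG2 (chr2:73892883-73893007, plus strand): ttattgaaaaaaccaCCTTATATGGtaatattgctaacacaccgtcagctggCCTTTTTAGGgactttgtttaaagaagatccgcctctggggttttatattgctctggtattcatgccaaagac
ACTG1 (chr17:81512800-81512924, minus strand): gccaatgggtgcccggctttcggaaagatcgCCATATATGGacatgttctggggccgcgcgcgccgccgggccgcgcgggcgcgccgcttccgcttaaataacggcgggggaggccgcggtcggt
The ACTA1 window holds CCAAATATGG, the printed ACTC1 window CCAAATAAGG and the ACTG1 window CCATATATGG, with first bases at -97, -109 and -94 from the start. ACTG2 has 2 exact boxes, CCTTATATGG at -110 and CCTTTTTAGG at -73. The printed ACTA2 window has no exact box and 2 with 1 other core letter, CCCTATATGG at -121 and CCTTGTTTGG at -71. Upstream of the printed bases, within 250 bases of the start, ACTA1 also has boxes with 1 other core letter at -224 and -178. The ACTC1 window has such boxes there at -237, -200 and -149. Over the 250 bases before 35116 starts in the table, 1.16% of windows held an exact CArG box and 5.96% one with 1 other core letter. These shares cover either strand, since the element reads alike on both. The letters TATAAA, found on either strand in 10.7% of all windows, occurred at -30 in ACTA1, at -31 in ACTC1 and, on the opposite strand, at -31 in ACTG2. An E-box, CANNTG, was in 61.8% of all windows, and in at least 1 window of ACTC1, ACTA2, ACTG2 and ACTG1 but not of ACTA1. None of the 8 actin windows held the MEF2 element, against 2.8% of all windows. These are matches of letters, and binding was not measured.

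The siRNA labels could be checked on ZNF148 itself, which with its siRNA differed by -1.53 at 24 h and -2.30 at 96 h in growth media, and by -2.34 and -2.74 at 48 and 96 h in differentiation media (limma, adjusted p at most 4.4e-08). One array stood apart from its group. In growth media at 48 h, replicate 1 of the nontargeting siRNA had ACTA1 at 17.31, where the other two arrays had 10.70 and 10.61, and ACTC1 at 10.63, where they had 4.89 and 5.10. ACTA2 was also higher there, at 14.30 against 12.86 and 12.75, while ACTG2, at 12.55 against 12.86 and 13.10, stayed with the group. Its summed level of 6 myotube markers reached 18.12, the highest in that group, whose lowest was 14.53. Because all 29 arrays share 1 estimate of the spread per probe, that array also widened the standard errors of ACTA1, ACTC1 and ACTA2 in every comparison. Several results that change without it are given both ways. The 6 arrays at 24 h were together on 1 slide and in 1 scan, and the others on 3 further slides, so a difference between 24 h and later times cannot be told apart from one between slides. The markers of the myoblast line were present, with at least 6 of 7 well above background on all arrays of every group. Summed levels of the smooth muscle markers lay between 8.16 and 9.94 in the nontargeting groups and in the ZNF148 siRNA arrays in growth media. The nontargeting arrays at 96 h in growth media alone spanned 8.78 to 9.94. At that time 3 of the 4 tested markers were over 2-fold higher and 1 lower with ZNF148 siRNA at an adjusted p under 0.05 (limma). Their median difference was 2.30, and 12.3% and 12.4% of all genes were called so. With ZNF148 siRNA in differentiation media, the summed levels were between 10.89 and 11.14. Those of the cardiac markers were at most 8.56 with nontargeting siRNA and between 9.86 and 11.34 with ZNF148 siRNA from 48 h on. The myotube sum was between 19.11 and 19.57 in the same ZNF148 siRNA groups. The sum of 5 fibroblast markers was lower there, between 11.48 and 12.14, against 13.48 to 14.19 with nontargeting siRNA at all times. A sum adds unlogged levels and so follows the brightest genes of a list. The median difference of these 5 markers was 0.11 at 96 h in growth media. It was -0.08 at 48 h and -0.17 at 96 h in differentiation media, so the list as a whole moved little. The part of these markers in the actin results was not tested. In such bulk samples, fewer cells of a type and less RNA per cell cannot be told apart.

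**Figure D1:**
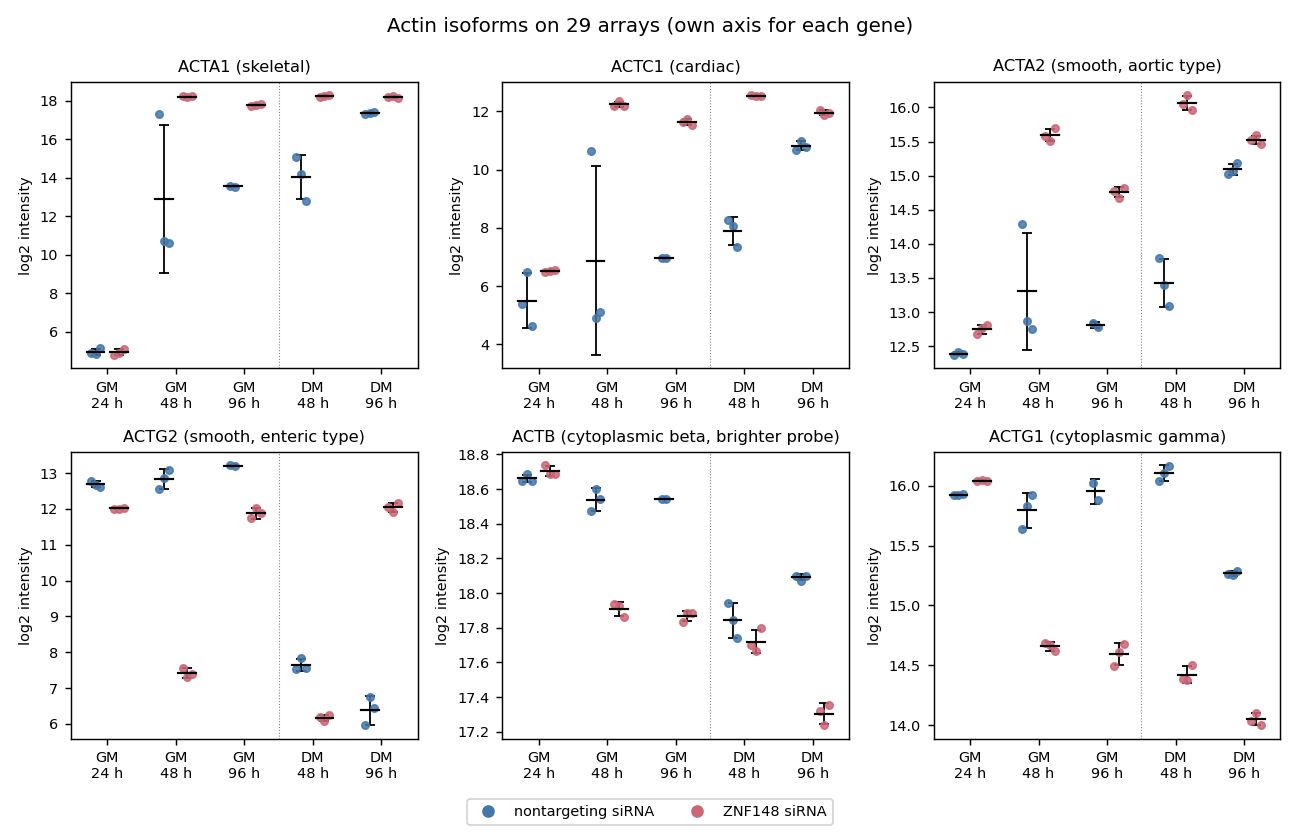
Log2 intensity of the 6 actins on each of 29 arrays, by media (GM, growth; DM, differentiation) and time, in blue for nontargeting and red for ZNF148 siRNA; short lines are group means, bars are SDs (n = 3, or 2 for nontargeting siRNA at 96 h in GM), and each gene has its own axis. ACTA1, ACTC1 and ACTA2 are high in the red points from 48 h on, ACTG1 is low there, and ACTG2 lies in 2 separate ranges, 5.95 to 7.85 and 11.73 to 13.21.

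At 24 h in growth media, none of the 6 actins passed the threshold for a change (adjusted p under 0.05 and more than 2-fold), while 5.48% of 18398 genes did, 2.45% upward and 3.04% downward. ACTG2 came nearest among those with a small p, 0.67 lower with ZNF148 siRNA (SE 0.15, adjusted p = 0.0023) at less than 2-fold, and its arrays did not overlap. It read 12.78, 12.66 and 12.62 with nontargeting siRNA and was at 12.02 ± 0.02 (SD, n = 3), at most 12.04, with ZNF148 siRNA. ACTA1, the main thin filament protein of mature skeletal muscle, was near the limit of detection in both groups. Its levels were 4.89, 4.83 and 5.13 with nontargeting siRNA and 4.80, 4.87 and 5.10 with ZNF148 siRNA, with 2 and 1 of the 3 arrays well above background. ACTC1 read 5.38, 6.50 and 4.64 against 6.47, 6.53 and 6.55, a difference of 1.01 (SE 0.88, adjusted p = 0.495) in which the groups overlapped; without the 48 h array that stood apart it passed (adjusted p = 0.0114). ACTA2 read 12.37, 12.41 and 12.39 against 12.68, 12.76 and 12.80, so that all ZNF148 siRNA arrays were above all nontargeting arrays by a small step of 0.36 (SE 0.25, adjusted p = 0.356). The t test of the study's methods, on these groups alone, gave ACTA2 a Benjamini-Hochberg adjusted p of 0.0069, at less than 2-fold. ACTG1 was likewise separated by a small step, 15.92 to 15.93 against 16.04 to 16.05 (difference 0.12, adjusted p = 0.243), and ACTB overlapped.

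At 48 h in growth media, the time that chose these genes, the values are a description. The cells with ZNF148 siRNA had ACTA1 at 18.22, 18.19 and 18.22 and ACTC1 at 12.20, 12.35 and 12.20, whereas the nontargeting arrays had the values given above. ACTA2 was at 15.58, 15.51 and 15.69. ACTG2 read 12.55, 12.86 and 13.10 with nontargeting siRNA and 7.57, 7.30 and 7.39 with ZNF148 siRNA, 42.8-fold lower on average. The differences of the group means were 5.34 for ACTA1, 5.37 for ACTC1 and 2.29 for ACTA2, and 7.56, 7.25 and 2.79 without the array that stood apart; for ACTG2 they were -5.42 and -5.56. ACTG1 was 1.14 lower, with 15.64 to 15.92 against 14.62 to 14.69, and the brighter ACTB probe 0.63 lower, with 18.47 to 18.60 against 17.86 to 17.94. Thus 3 muscle actins were over 2-fold higher and 2 actins over 2-fold lower, where 13.1% of all genes were higher and 13.5% lower by that much (26.6% in all), and nothing is read from these counts.

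At 96 h in growth media, 3 actins rose with ZNF148 siRNA, ACTA1 by 18.7-fold, ACTC1 by 25.3-fold and ACTA2 by 3.86-fold, and 2 fell, ACTG2 by 2.51-fold and ACTG1 by 2.56-fold. Over all 18398 genes, 12.3% rose and 12.4% fell (24.7% in all). ACTA1 read 13.58 and 13.54 with nontargeting siRNA and 17.73, 17.77 and 17.85 with ZNF148 siRNA, a difference of 4.22 (SE 1.15, adjusted p = 0.0046). ACTC1, the actin of the heart that is also made in fetal skeletal muscle, read 6.97 and 6.98 against 11.64, 11.73 and 11.53 (difference 4.66, SE 0.98, adjusted p = 0.00045). ACTA2 read 12.84 and 12.78 against 14.78, 14.67 and 14.81 (difference 1.95, SE 0.28, adjusted p = 4.7e-06). These 3 actins were high on every ZNF148 siRNA array and the groups lay far apart. ACTG2 read 13.21 on both nontargeting arrays and 11.73, 12.04 and 11.88 with ZNF148 siRNA (difference -1.33, SE 0.17, adjusted p = 1.3e-06), a smaller deficit than the 42.8-fold one at 48 h. ACTG1 read 16.02 and 15.88 against 14.50, 14.62 and 14.68 (difference -1.36, SE 0.07, adjusted p = 5e-12). The brighter ACTB probe was at 18.54 on both nontargeting arrays and at 17.84 to 17.88 with ZNF148 siRNA, 0.67 lower (adjusted p = 1.2e-08) and under the 2-fold threshold. Both nontargeting arrays were on 1 slide, which also held 1 of the ZNF148 siRNA arrays, and within that slide the differences were 4.21 for ACTA1, 4.75 for ACTC1, 1.87 for ACTA2, -1.18 for ACTG2 and -1.34 for ACTG1.

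**Figure D2:**
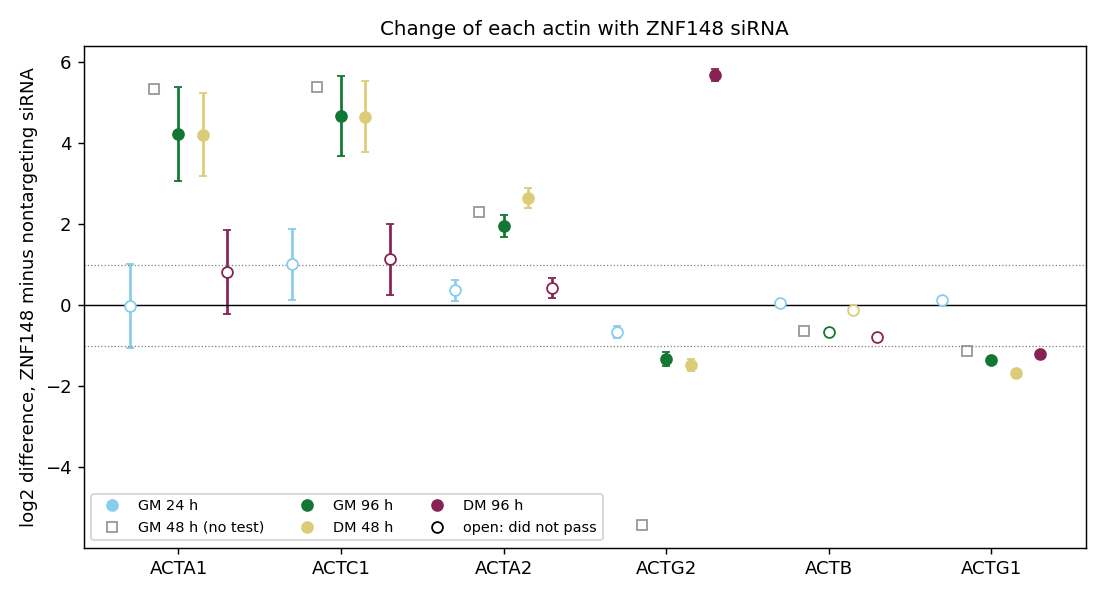
Log2 difference between ZNF148 and nontargeting siRNA for each actin in 5 conditions (GM, growth media; DM, differentiation media); circles are limma estimates with their SE, filled where adjusted p was under 0.05 and the change over 2-fold, open squares are differences at 48 h in GM, given with no test, and dotted lines mark 2-fold. ACTG2 runs from -5.42 at 48 h in GM to 5.68 at 96 h in DM, while ACTG1 is below 0 in every condition after 24 h.

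In differentiation media at 48 h, the same 3 actins rose and the same 2 fell as at 96 h in growth media, against 15.1% of all genes that rose and 17.3% that fell (32.3% in all). ACTA1 varied among the nontargeting arrays, at 15.08, 14.21 and 12.80, and was level at 18.19, 18.24 and 18.28 with ZNF148 siRNA (difference 4.21, SE 1.03, adjusted p = 0.0014). ACTC1 read 8.26, 8.06 and 7.35 against 12.55, 12.52 and 12.54 (difference 4.65, adjusted p = 0.0001). ACTA2, the actin of vascular smooth muscle and of myofibroblasts, read 13.79, 13.39 and 13.09 against 16.05, 16.18 and 15.97 (difference 2.64, SE 0.25, adjusted p = 6.2e-09). On the 3 nontargeting arrays the order of the values was the same for all 3 genes, with replicate 1 highest and replicate 3 lowest. ACTG2 was low in both groups, at 7.53, 7.85 and 7.57 with nontargeting and 6.18, 6.08 and 6.25 with ZNF148 siRNA (difference -1.48, SE 0.15, adjusted p = 2.8e-08; with normexp background correction -0.96, under 2-fold). ACTG1 read 16.04 to 16.17 against 14.38 to 14.50, the widest gap of this gene (difference -1.68, adjusted p = 7e-15), and the brighter ACTB probe overlapped (difference -0.12, adjusted p = 0.0724). Within each of the 3 slides that held both groups, the differences were 3.16 to 5.39 for ACTA1, 4.26 to 5.21 for ACTC1, 2.38 to 2.96 for ACTA2, -1.60 to -1.39 for ACTG2 and -1.78 to -1.61 for ACTG1.

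By 96 h in differentiation media the picture differed in ACTG2, which rose 51.1-fold with ZNF148 siRNA. It read 5.95, 6.75 and 6.43 with nontargeting siRNA and 12.06, 11.92 and 12.17 with ZNF148 siRNA (difference 5.68, SE 0.15, adjusted p = 1.3e-16). All arrays were well above background, and the difference was 5.49 and 5.83 within the 2 slides that held both groups. ACTG1 fell by 1.22 (SE 0.07, adjusted p = 3e-12), from 15.25 to 15.29 down to 14.01 to 14.11. These were the only 2 actins that passed, where 10.5% of all genes rose and 12.8% fell (23.3% in all). In ACTA1 the nontargeting arrays had reached 17.31, 17.39 and 17.41 and those with ZNF148 siRNA were at 18.19, 18.22 and 18.13. The groups did not overlap, but the difference of 0.81 (SE 1.03) had an adjusted p of 0.57, or 0.0359 without the array that stood apart, and was under 2-fold. ACTC1 read 10.69, 10.98 and 10.79 against 12.04, 11.87 and 11.96 (difference 1.13, adjusted p = 0.318), and passed without that array (adjusted p = 0.00232) and by the methods' test, which compares only these 2 groups (Benjamini-Hochberg adjusted p = 0.0023). ACTA2 read 15.03, 15.07 and 15.18 against 15.53, 15.59 and 15.47 (difference 0.43, adjusted p = 0.164). Its groups did not overlap, and the methods' test gave it a Benjamini-Hochberg adjusted p of 0.0071, at less than 2-fold. The brighter ACTB probe was lower by 0.79 (adjusted p = 1.4e-10) and under the 2-fold threshold.

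With nontargeting siRNA, differentiation media set the actins apart from growth media at 96 h: ACTA1 was 14-fold, ACTC1 14.4-fold and ACTA2 4.88-fold higher, and ACTG2 was 114-fold lower. Over all genes 6.81% rose and 8.26% fell (15.1% in all). The mean of ACTG2 was 13.21 ± 0.00 (SD, n = 2) in growth and 6.38 ± 0.40 (n = 3) in differentiation media, the largest difference of any actin between 2 groups in a tested comparison (-6.84, SE 0.17, adjusted p = 8.2e-17). For ACTA1 the adjusted p was 0.013, 0.089 with the slide as a block (difference 3.13), and 0.0671 and 0.0669 without replicate 1 or 2 in growth media; no slide held both of these groups. ACTC1 (difference 3.85, adjusted p = 0.0037) and ACTA2 (difference 2.29, adjusted p = 1e-06) passed with the block too. ACTG1 was 0.68 and the brighter ACTB probe 0.45 lower in differentiation media, both under 2-fold. With ZNF148 siRNA, no actin passed between the media at 96 h, and 6.42% of all genes did, 1.45% upward and 4.98% downward. ACTG2 was 11.88 ± 0.15 in growth and 12.05 ± 0.13 in differentiation media (n = 3 each), with overlapping arrays (difference 0.17, SE 0.15, adjusted p = 0.504). ACTA2 was 0.77 higher in differentiation media (adjusted p = 0.0284), and ACTG1 0.55 and ACTB 0.56 lower, all under 2-fold. At 48 h, a description only, 2 actins were over 2-fold higher in differentiation media with nontargeting siRNA, ACTA1 by 1.16 and ACTC1 by 1.02 (3.38 and 2.89 without the array that stood apart), and ACTG2 was over 2-fold lower. ACTG2 was 5.19 lower in differentiation than in growth media with nontargeting siRNA and 1.25 lower with ZNF148 siRNA. With nontargeting siRNA 9.19% of all genes were over 2-fold higher and 9.87% over 2-fold lower there (19.1% in all), and with ZNF148 siRNA 7.5% were either, with 4.57% lower.

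Between 48 and 96 h in differentiation media, ACTA1 rose by 3.34 (adjusted p = 0.0156), ACTC1 by 2.93 (adjusted p = 0.0128) and ACTA2 by 1.67 (adjusted p = 1.6e-05) in the nontargeting cells, and ACTG2 fell by 1.27 (adjusted p = 1.1e-06; with normexp -0.83, under 2-fold). Of all genes, 5.76% rose and 4.18% fell (9.94% in all). Without nontargeting replicate 3 at 48 h, the array with the lowest ACTA1, the count of actins that passed was 2, with ACTA1 at an adjusted p of 0.0866 and ACTC1 at 0.054. With ZNF148 siRNA, ACTG2 alone passed, a rise of 5.88 or 59-fold (SE 0.15, adjusted p = 7.1e-16), where 4.35% of all genes rose and 3.7% fell (8.05% in all). The ACTG2 difference was between 5.81 and 5.99 within each of 3 slides. The other actins of these cells moved little, with ACTA1 at -0.06, ACTC1 at -0.58, ACTA2 at -0.54, ACTG1 at -0.37 and the brighter ACTB probe at -0.42. The growth media arrays with ZNF148 siRNA, again as a description, went the same way, with ACTG2 at 7.42 ± 0.14 at 48 h and 11.88 ± 0.15 at 96 h (n = 3 each). There 5.62% of all genes were over 2-fold higher at 96 h (9.33% in either direction). With nontargeting siRNA no actin differed by more than 2-fold between those times, but without the array that stood apart ACTA1 was 2.91 and ACTC1 1.98 higher at 96 h. In the same comparison of all arrays 2.42% of genes were higher and 2.09% lower by that much (4.51% in all).

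The change of the siRNA effect with time and media was tested in the same fit. From 24 to 96 h in growth media the effect grew by 4.25 for ACTA1 (adjusted p = 0.036), 3.65 for ACTC1 (adjusted p = 0.0344) and 1.59 for ACTA2 (adjusted p = 0.0017), and went down by 1.47 for ACTG1 (adjusted p = 2.8e-10). Such a difference was found upward for 11.6% and downward for 11.2% of all genes (22.7% in all). The calls of ACTA1 and ACTC1 were close to the threshold: that of ACTA1 was lost when any single array of these groups was left out, and that of ACTC1 with any but nontargeting replicate 3 at 24 h. With the slide as a block, the difference for ACTA1 was 4.09 (adjusted p = 0.0596). Between growth and differentiation media at 96 h, the effect on ACTG2 went from -1.33 to 5.68, a difference of 7.01 (SE 0.23, adjusted p = 7.2e-14), and that on ACTA2 differed by -1.52 (adjusted p = 0.0043), against 5.5% of genes upward and 6.94% downward (12.4% in all). For ACTA1 and ACTC1 the effect differed by -3.41 and -3.53, which did not pass (adjusted p 0.123 and 0.057) but did without the array that stood apart (adjusted p 1.1e-05 and 2.4e-06). For ACTC1, which lay near the threshold, normexp, the stricter filter, the mean of a gene's probes, the replicate block and the fit to the compared arrays also gave a call, with adjusted p of at most 0.0474. Between 48 and 96 h in differentiation media the effect on ACTG2 went up by 7.16 (adjusted p = 1.4e-14), and that on ACTA2 and ACTC1 went down by 2.21 (adjusted p = 3.5e-05) and 3.52 (adjusted p = 0.0335), against 8.12% of genes upward and 8.65% downward (16.8% in all). With the slide as a block, that of ACTC1 was -3.23 and no longer passed (adjusted p = 0.0521), and it was also lost when most single arrays of these groups were left out (adjusted p up to 0.0761). The effect on ACTG1 differed between the media at 96 h by 0.14 (adjusted p = 0.373).

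ACTB, often used as a reference for other genes, was read differently by its probes. The brighter probe ranged over 1.40 between the 10 group means, from 18.70 ± 0.03 with ZNF148 siRNA at 24 h to 17.30 ± 0.06 with ZNF148 siRNA at 96 h in differentiation media (n = 3 each). The dimmer probe ranged over 0.40, between 13.43 and 13.83. At 96 h in growth media the brighter probe was 0.67 lower with ZNF148 siRNA and the dimmer 0.03 lower (adjusted p = 0.865), and at 96 h in differentiation media the brighter was 0.79 lower and the dimmer 0.15 higher (adjusted p = 0.199). The brighter probe ranked between the 4th and the 160th of 58201 probes on every array, and no array was marked as saturated in either probe. As quantile normalization gives each rank the same value on every array, values so near the top move in steps of rank, and several arrays share a value exactly. The same holds for ACTA1 in the ZNF148 siRNA groups, where it reached the 19th rank. The positions of the probes in the transcripts were not given in the sources used here, and the coding sequences of actins are very alike, so reads of 1 actin by the probe of another were not tested.

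**Figure D3:**
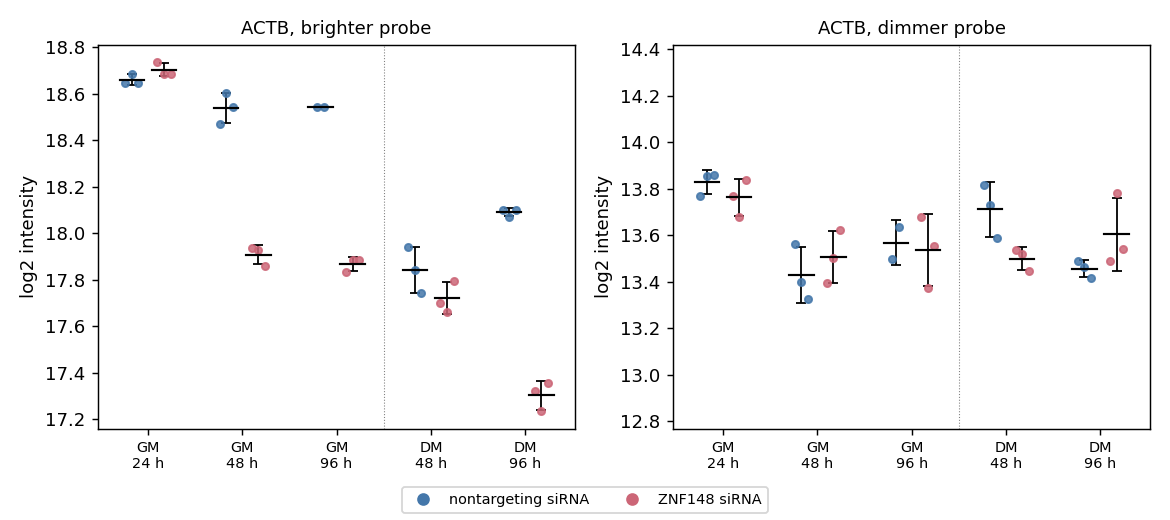
Log2 intensity of the 2 ACTB probes on each array, by media (GM, growth; DM, differentiation) and time, in blue for nontargeting and red for ZNF148 siRNA, with group means and SDs (n = 3, or 2 for nontargeting siRNA at 96 h in GM); both panels span the same number of log2 units. The group means of the brighter probe span 1.40 and those of the dimmer probe 0.40.

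Ordered by level, ACTA1 and ACTC1 had the same sequence of groups down to the 24 h samples, and ACTA2 and ACTG2 had others. ACTA1 was highest in the 3 groups with ZNF148 siRNA at 48 h in both media and at 96 h in differentiation media, 18.24, 18.21 and 18.18, which overlapped one another, and next with ZNF148 siRNA at 96 h in growth media (17.78 ± 0.06) and nontargeting siRNA at 96 h in differentiation media (17.37 ± 0.05), which did not. The other nontargeting groups after 24 h overlapped their neighbours, and both 24 h groups were lowest at 4.95 and 4.93. In ACTC1 the upper 5 groups had the same members and none overlapped its neighbour, from 12.54 ± 0.02 to 10.82 ± 0.15. ACTA2 ran from 16.06 ± 0.11 with ZNF148 siRNA at 48 h in differentiation media to 12.39 ± 0.02 with nontargeting siRNA at 24 h, and nontargeting siRNA at 96 h in differentiation media (15.10 ± 0.08) was above ZNF148 siRNA at 96 h in growth media (14.76 ± 0.07). In ACTG2, 17 arrays of 6 groups were between 11.73 and 13.21, 12 arrays of 4 groups between 5.95 and 7.85, and no array lay in the gap of 3.89 between them. The low groups were both siRNAs at 48 h in differentiation media, nontargeting siRNA at 96 h in differentiation media and ZNF148 siRNA at 48 h in growth media. ACTG1 was highest with nontargeting siRNA at 48 h in differentiation media (16.11 ± 0.06) and lowest with ZNF148 siRNA at 96 h in differentiation media (14.05 ± 0.05), and the 4 lowest of its groups were those with ZNF148 siRNA after 24 h.

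Over the 10 group means, Pearson's r was 0.982 between ACTA2 and ACTC1, 0.862 between ACTA2 and ACTA1 and -0.64 between ACTA2 and ACTG2. For the cytoplasmic actins it was -0.923 between ACTG1 and ACTC1, and between ACTB and ACTA1 it was -0.81 for the brighter and -0.768 for the dimmer ACTB probe, whose means span only 0.40. These correlations describe 10 points that share normalization and slides. The points include both groups at 48 h in growth media, whose ACTG2 values chose these genes and 1 of which holds the array that stood apart, and so do the likeness values that follow. Without these groups, over 8 points, r was 0.983 between ACTA2 and ACTC1 and -0.568 between ACTA2 and ACTG2. The gene most like ACTG2 among 16219 genes compared was TPM4, a tropomyosin of the cytoskeleton (r = 0.986), ahead of RGCC, a regulator of the cell cycle (0.948), and the histone gene H2AC7 (0.944). TPM4 moved over a far smaller range. Its mean was 12.67 at 48 h and 13.98 at 96 h in differentiation media with ZNF148 siRNA, and 13.11 and 12.51 with nontargeting siRNA. With ZNF148 siRNA, TPM4 was 1.46 higher at 96 h in differentiation media and 0.46 lower at 96 h in growth media. As TPM4 was picked by its likeness to ACTG2 over these same groups, these values are a description and no p is given. For ACTA1 the nearest genes were MYL11, a light chain of fast skeletal myosin (r = 0.998), MYBPH, a myosin-binding protein (0.996), and the growth factor IGF2 (0.993), and for ACTC1 they were PRICKLE1 (0.998), BIN1 (0.995) and BCDIN3D (0.994). FBXL22, EDC4 and OCIAD1 were nearest to ACTA2 (0.996, 0.992 and 0.988). The brighter ACTB probe was most like OSR1 (0.99) and 2 genes of dividing cells, TOP2A and PBK (0.989 each), and ACTG1 most like POGK (0.999), EIF2AK4 (0.995) and SHPK (0.993).

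**Figure D4:**
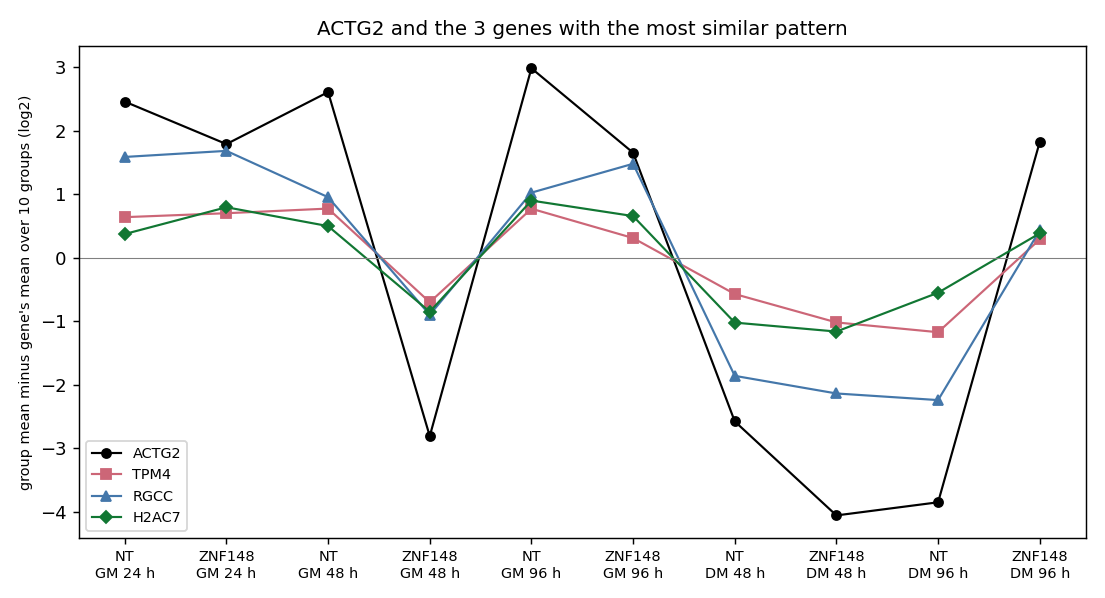
Mean log2 level of ACTG2 and of the 3 genes with the most similar pattern in 10 groups (NT, nontargeting siRNA; GM and DM, growth and differentiation media), each gene minus its own mean over the groups; points are means of 3 arrays, or of 2 for NT at 96 h in GM. All 4 genes are low with ZNF148 siRNA at 48 h and back above 0 at 96 h, and ACTG2 covers the widest range, from 13.21 down to 6.17 in level.

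Many partners of actin in the thin filament rose with ZNF148 siRNA after 24 h, at 96 h in differentiation media too. In that last condition neither ACTA1 nor ACTC1 passed with all arrays. Both were higher there without overlap, and ACTC1 passed without the array that stood apart. Of 25 tested genes in a list of 27 that bind, cap or build thin filaments, 19 rose and none fell with ZNF148 siRNA at 96 h in growth media (median difference 4.23, against -0.03 over all genes), 19 rose at 48 h and 18 at 96 h in differentiation media, and none passed at 24 h. Of all genes, 12.3%, 15.1% and 10.5% rose in these 3 conditions and 5.48% passed at 24 h. LMOD2, which elongates thin filaments, was higher by 8.88 at 96 h in growth media, where 1 of 2 nontargeting arrays was well above background. XIRP2, an actin-binding protein of muscle, was at least 132-fold higher, as both nontargeting arrays were not well above background. TNNC2, the calcium-binding troponin of fast muscle, rose by 8.15 and KLHL40, which stabilizes thin filament proteins, by 7.99. With nontargeting siRNA, 13 of the 25 rose and 2 fell, TPM3 and TPM4, in differentiation against growth media at 96 h (6.81% and 8.26% of all genes), and with ZNF148 siRNA none passed. The effect of the siRNA was smaller in differentiation than in growth media for 3 of the 25 and larger for 2, and without the array that stood apart the first number was 14 (6.94% and 5.5% of all genes with all arrays).

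Of 26 tested genes that turn actin filaments over, 2 rose and 11 fell with ZNF148 siRNA at 96 h in growth media (median -0.59), 4 rose and 8 fell at 48 h and 1 rose and 5 fell at 96 h in differentiation media, and 2 fell at 24 h. The shares of all genes that fell were 12.4%, 17.3%, 12.8% and 3.04%, and of those that rose 12.3%, 15.1%, 10.5% and 2.45%. The largest differences at 96 h in growth media were those of DIAPH3, a formin that nucleates filaments (-4.21), TWF1, which binds actin monomers (-2.52), CAP2, a monomer-binding protein of muscle (1.94), and ARPC1B, a subunit of the Arp2/3 complex (-1.63), and all 4 passed. Of 16 tested genes that fold or modify actin, 1 passed there, SETD3, which methylates a histidine of actin (1.30, adjusted p = 0.0067). The next largest of that list did not pass, with NAA80, which acetylates the actin N-terminus, at -0.78. In differentiation media 5 of the 16 rose and 1 fell at 48 h, where 32.3% of all genes passed, and 1 fell at 96 h, where 23.3% did.

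Of 8 tested genes for SRF and its cofactors, 1 rose and 1 fell at 96 h in growth media, a share near the 24.7% of all genes that passed. ABRA, a muscle activator of SRF signalling, was the gene that rose, at least 12.5-fold, being not well above background on both nontargeting arrays. It passed the filter on low signals only through arrays with ZNF148 siRNA. A rise was thus favoured in advance, and no p is given for it. FHL2, a LIM protein that binds SRF, fell by 1.86. MYOCD, the cofactor of smooth and cardiac muscle, was well above background on 1 array of 5, and MRTFA was 0.72 higher (adjusted p = 4.1e-06), under 2-fold. SRF itself rose by 2.00 (adjusted p = 2.2e-09) at 48 h in differentiation media and was 0.22 higher at 96 h (adjusted p = 0.327). At 48 h it was joined by MRTFA (1.08) and ABRA, and these were the only 3 of the 8 that passed. Of all genes, 15.1% rose and 17.3% fell there (32.3% in all), and nothing is read from this count. Of 16 tested genes of smooth muscle and other SRF targets, 7 rose and 5 fell at 96 h in growth media (median 0.45), 7 rose and 4 fell at 48 h and 7 rose and 3 fell at 96 h in differentiation media, where 24.7%, 32.3% and 23.3% of all genes passed. MYH11, the myosin of smooth muscle, was at least 7.62-fold higher at 96 h in growth media, and CNN1, a calponin that binds thin filaments of smooth muscle, rose by 3.28, with 1 of 2 nontargeting arrays well above background. MYLK, the kinase of myosin light chain, fell by 2.94, and SYNPO2, an actin-binding protein of the Z-disc and smooth muscle, by 2.33. Between 48 and 96 h in differentiation media with ZNF148 siRNA, the interval in which ACTG2 rose 59-fold, 4 of the 16 rose and 1 fell (4.35% and 3.7% of all genes). CNN1 rose by 1.96 (adjusted p = 0.0215) and TAGLN, an actin-binding protein of smooth muscle, by 1.10 (adjusted p = 1.5e-06), and SYNPO2 fell by 1.68. TAGLN and SYNPO2 moved the same way with nontargeting siRNA, by 1.53 and -1.84, where ACTG2 fell. CNN1 was at 4.54 ± 0.29 at 48 h and 5.80 ± 1.09 at 96 h there (n = 3 each), with overlapping arrays. In that interval with nontargeting siRNA, 3 of the 16 rose and 3 fell (5.76% and 4.18% of all genes).

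**Figure D5:**
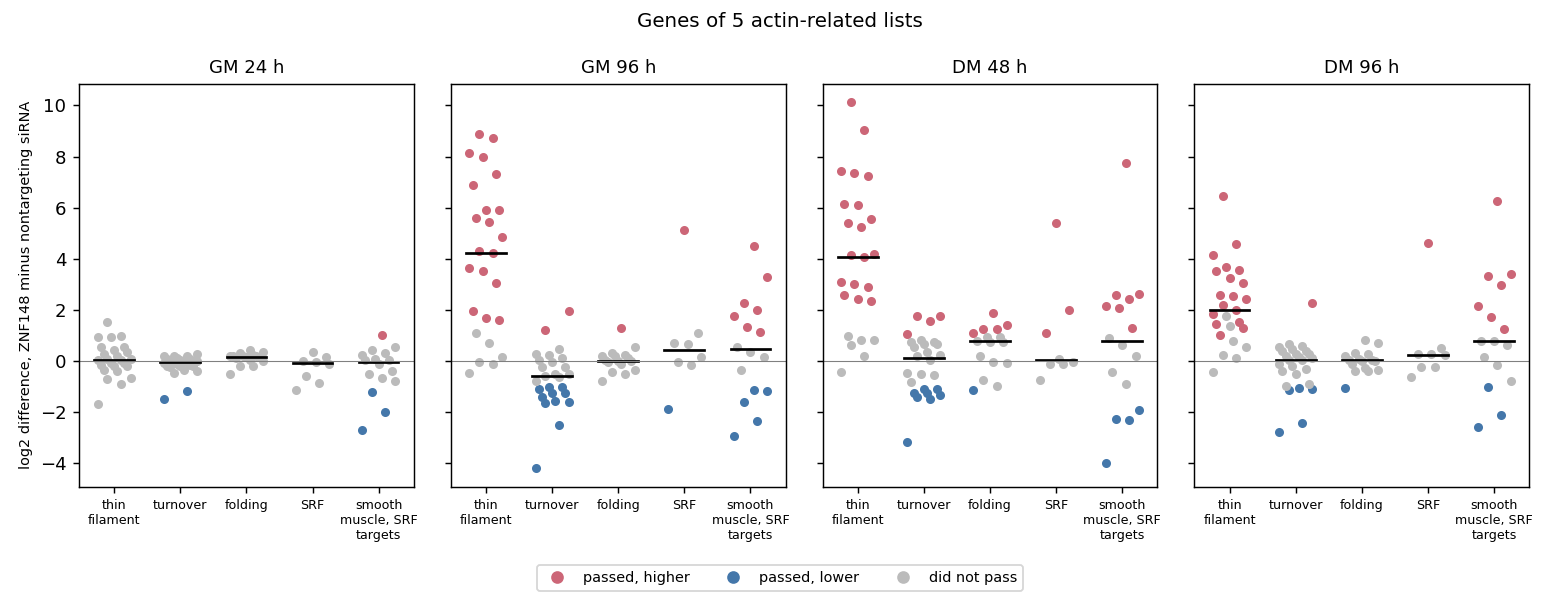
Log2 difference between ZNF148 and nontargeting siRNA for each tested gene of 5 lists (thin filament partners, 25 genes; turnover, 26; folding and modification, 16; SRF and its cofactors, 8; smooth muscle and SRF targets, 16) in 4 conditions, GM being growth and DM differentiation media; points are red or blue where the gene passed and black lines are list medians. The thin filament median is 4.23 at 96 h in GM and 1.99 at 96 h in DM.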

How the data were processed

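RNA of LHCN-M2 cells was labelled with Cy3 and hybridized to one-colour Agilent arrays, read with Feature Extraction 10.7.3.1 per the file headers. The authors deposited log2 values that were quantile normalized, with the same distribution on all 29 arrays (median 4.28) and 140 control rows among 58341, and these were the main values. The deposited scanner intensities, which are background-subtracted per the file headers, gave the flags for signals well above background (41.5 to 56.5% of probes per array) and the alternatives. Each normalized column matched its own array best (r of at least 0.997). In the scanner alternatives only, 891 values whose spots were all outliers were filled with the probe's mean over the other arrays. The number of arrays limits the precision. Of 15 headers that name no genome build and 14 that name hg19, none was used for coordinates.

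Probes were named by RefSeq accession (31104 probes, 22439 genes), and 38714 probes entered the tests, those marked well above background on 2 or more arrays, covering 18398 genes through their brightest tested probe. limma 3.58.1 in R 4.3.3 (with the package data.table, version 1.17.8) fitted 1 mean per group over all 29 arrays, with Benjamini-Hochberg adjustment over all tested probes. A change was called at an adjusted p under 0.05 and more than 2-fold. Scripts were tested on simulated data. Figures were drawn with matplotlib 3.10.9 in Python 3.11.15. Alternatives were normexp background correction, scanner values, 75th percentile scaling, no filter or a stricter one, the mean of a gene's probes, only the compared arrays, no fold threshold, another variance model, the methods' test, slide and replicate blocks, and leaving out arrays.

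The actins and the lists were chosen with earlier results of these data known. Named were the 6 actins and the 3 genes most like each of them. From each list, up to 4 genes were named by size of the difference at 96 h in growth media. In other comparisons, TPM3, TPM4, SRF, MRTFA, TAGLN and SYNPO2 were named after their values were seen. Replicate numbers were not used to pair the arrays in the main fit, although the study's methods speak of paired samples. Same-number correlations of deviations from the group means lay between -0.161 and 0.123, which cannot exclude a pairing with so few arrays a group. Titles and descriptions number the ZNF148 siRNA replicates at 48 h in growth media differently, and titles were used.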

Additional observations from a re-analysis of the deposited data

Results flagged for a closer look

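The effect of ZNF148 siRNA differed between conditions, by a limma test of the difference itself, in 9 results. From 24 to 96 h in growth media it differed by 4.25 for ACTA1 (adjusted p = 0.036), 3.65 for ACTC1 (adjusted p = 0.0344), 1.59 for ACTA2 (adjusted p = 0.0017) and -1.47 for ACTG1 (adjusted p = 2.8e-10), and the 24 h arrays were on a slide of their own. The call of ACTA1 was lost with any array of these groups left out and with the slide as a block (adjusted p = 0.0596), and that of ACTC1 with any but nontargeting replicate 3 at 24 h left out. Between differentiation and growth media at 96 h it differed by 7.01 for ACTG2 (adjusted p = 7.2e-14), from a fall to a rise, and by -1.52 for ACTA2 (adjusted p = 0.0043). Between 96 and 48 h in differentiation media it differed by 7.16 for ACTG2 (adjusted p = 1.4e-14), -2.21 for ACTA2 (adjusted p = 3.5e-05) and -3.52 for ACTC1 (adjusted p = 0.0335), which was lost with the slide as a block (adjusted p = 0.0521) and when most single arrays were left out.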

How the results depend on the processing

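Counts of actins that passed changed by over 1.5 times as follows. With normexp, the actins over 2-fold between media at 48 h with ZNF148 siRNA numbered 0. With no filter, 2 passed for the effect at 96 minus 24 h. With only the compared arrays, 4 passed for the effect in differentiation minus growth media. Without the 48 h nontargeting array that stood apart, an alternative chosen after seeing the data, 1 passed at 24 h, 4 for the effect between media, and 2 were over 2-fold between 96 and 48 h in growth media with nontargeting siRNA, where the slide block gave 1. With no fold threshold, 1 passed at 24 h, 3 between media at 96 h and 3 between 96 and 48 h in differentiation media with ZNF148 siRNA, and 5 for the effect at 96 minus 48 h. Leaving out each array gave 2 to 3 for the effect at 96 minus 24 h, 2 to 4 between 96 and 48 h in differentiation media, 1 to 3 between media at 48 h and 0 to 2 between 96 and 48 h in growth media, the last 3 with nontargeting siRNA. Reversals were in small values: ACTB with 75th percentile scaling (-0.039 between 96 and 48 h, 0.054 for the effect between media) or the mean of its probes (-0.012 at 24 h, -0.0040 and 0.034 for those 2 differences), and ACTA1 at 24 h, from -0.11 to 0.063 over the arrays left out. Within 1 slide, ACTA1 was at -4.51 and ACTC1 at -3.28 between media at 48 h with nontargeting siRNA, against the array that stood apart. The cause was not tested. The replicate block moved 0 counts and 1 of 66 calls, ACTC1 for the effect between media (-3.71, adjusted p = 0.0474), and the slide block changed 3 calls, given above. Over all genes, normexp called fewer, 2.47% against 5.48% at 24 h and 2.8% against 6.42% between media at 96 h with ZNF148 siRNA.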
